A study of Homo sapiens with 6 samples.

Results

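The GADD45 genes (*GADD45A*, *GADD45B* and *GADD45G*) encode small nuclear stress sensors, and they were examined here in A2780 ovarian cancer cells together with *GADD45GIP1*, whose product binds GADD45 proteins, and *PPP1R15A*, which encodes GADD34. These 5 genes were chosen by name, through their Ensembl identifiers, from the 58336 genes of the deposited count table, and all 5 were found. A2780 is an established human cell line. It was exposed either to DMSO vehicle or to 6 µM TH588 for 48 h, each in 3 independent experiments, which gave 3 libraries per group, here called replicates A, B and C. The labels do not tie a letter to an experiment shared by both groups. TH588 inhibits MTH1, a Nudix hydrolase that clears oxidized nucleotides, and also stalls cells in mitosis. The parental line was used without any transgene, and 1 line at 1 dose and 1 time cannot stand for other ovarian cancers or for the course of the response.

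GADD45 proteins have no enzyme activity of their own and act by binding others. They release the kinase MAP3K4 from its inhibited state, which switches on p38 and JNK signaling, they disturb the CDK1/cyclin B complex that drives entry into mitosis, and they bind PCNA and p21. They have also been linked to active DNA demethylation through TDG and TET enzymes. *GADD45A* is a classical gene of the DNA damage response, while *GADD45B* is best known as a target of NF-kB and of TGF-beta signaling. GADD34 works in another place. It brings protein phosphatase 1 to the translation factor eIF2 and so ends the block of protein synthesis that eIF2 kinases set up under stress, and its mRNA is induced by ATF4 and CHOP. The product of *GADD45GIP1*, also called CRIF1, is a constituent of the large subunit of the mitochondrial ribosome.

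The total counts ranged from 28537837 in TH588 replicate A to 99074175 in TH588 replicate B, and the other 4 libraries lay between 77634048 and 98176722. TH588 replicate A was therefore the shallowest, and 21.94% of its counts came from *SNORD3A*, a small nucleolar RNA, against 7.68% to 12.95% elsewhere. Of 10 markers of ovarian cancer and epithelium, only *EPCAM* and *KRT18* were abundant enough to be tested, and *PAX8*, *WT1*, *KRT7* and *CDH1* had at most a few reads. The label of ovarian origin therefore has little support from these markers in the RNA. The summed level of the 10 markers was 3.82 to 4.60 CPM in the DMSO libraries and 11.02 to 12.17 CPM in the TH588 libraries, and that of 8 markers of leukocytes, endothelium and fibroblasts was 11.5 to 13.5 CPM against 13.6 to 14.8 CPM. Nearly all of the latter sum came from the fibroblast genes *DCN*, *COL1A1* and *COL1A2*, at means of 6.99, 3.97 and 1.43 CPM with DMSO. With TH588 the means were 6.445, 3.839 and 3.702 CPM. Only *COL1A2* differed (edgeR, adjusted p = 0.00012, against 0.404 for *DCN* and 0.977 for *COL1A1*). In the former sum, *EPCAM* rose from a mean of 0.6435 to 4.737 CPM and *KRT18* from 3.556 to 6.543 CPM (edgeR, adjusted p = 8.23e-07 and 0.00017). The leukocyte and endothelial genes *PTPRC*, *CD3E*, *CD68*, *PECAM1* and *VWF* had at most 11 counts in any library. The part of either marker group in the results that follow was not tested.

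The promoters of the members that were searched differed in the exact short elements found in them. RefSeq windows of GRCh38.p14 were matched for *GADD45B*, *GADD45G*, *GADD45GIP1* and *PPP1R15A*. The set of promoters used held no window for *GADD45A*, so its promoter was not searched. The 250 bases before each RefSeq start were searched on both strands for the CCAAT box and the TATA box in the form TATAAA. The cyclic AMP response element TGACGTCA, to which ATF and CREB factors bind, and the C/EBP-ATF element TGATGCAA were searched for too. Positions below count from the RefSeq start. For *GADD45B* and *PPP1R15A* the window ended at 2476126 and 48872420, past the gene starts of the count table. The window of *GADD45GIP1* also reached into the gene as counted. The stretches shown are those just before *GADD45B* (chr19:2476022-2476121, plus strand), a member that rose, and before its paralog with almost no reads, *GADD45G* (chr9:89604912-89605011, plus strand), and 30 bases of *PPP1R15A* (chr19:48872352-48872381, plus strand). Capitals mark exact matches only. Variant forms of the TATA box were not searched for, so the tatataa in the *GADD45G* stretch is not marked.
GADD45B: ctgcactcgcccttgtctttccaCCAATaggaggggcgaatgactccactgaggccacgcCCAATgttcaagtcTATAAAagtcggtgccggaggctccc
GADD45G: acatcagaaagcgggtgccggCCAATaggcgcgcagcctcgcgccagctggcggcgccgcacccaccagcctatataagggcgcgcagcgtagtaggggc
PPP1R15A: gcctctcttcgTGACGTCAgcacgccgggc
*GADD45B* carried CCAAT at 78 to 82 and at 41 to 45 bases before its RefSeq start and TATAAA at 26 to 31. These are not distances from the end of the stretch shown, which stops at the count table's start, ahead of the RefSeq start. *GADD45G* carried CCAAT at 75 to 79. *PPP1R15A* carried TGACGTCA at 51 to 58 bases before its RefSeq start and TATAAA at 25 to 30. In the count table *PPP1R15A* starts at 48872392, so its TATAAA lies across that start and its TGACGTCA shortly before it. In the GENCODE annotation *PPP1R15A* starts at 48872212, ahead of both elements. *GADD45GIP1* held only TATAAA, at 133 to 138. None of the 4 promoters held TGATGCAA. Among 35116 promoters, 32.01% held CCAAT, 10.72% TATAAA, 1.65% TGACGTCA and 0.77% TGATGCAA in the same span.

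Of the 5 members, 4 passed the filter on low counts, and all 4 differed between the groups at an adjusted p under 0.05 in edgeR's quasi-likelihood test. *GADD45A*, *PPP1R15A* and *GADD45B* were higher after TH588, *GADD45GIP1* was lower, and *GADD45G* had 1 read in the 6 libraries together. The libraries of the groups did not overlap for any of the 4. These counts have to be read against a broad response: 49.6% of the 15844 genes tested were called, 24.2% as higher and 25.3% as lower, and the groups did not overlap for 57.7%. Scaling matters for this split. Rises were 48.9% of the calls under TMM and 60.4% under library size alone, where the median change over all genes was 0.126 on the log2 scale in place of 0.019. Because RNA of whole cultures was sequenced, a change in the share of cells that express a gene and a change in RNA per cell cannot be told apart.

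**Figure D1:**
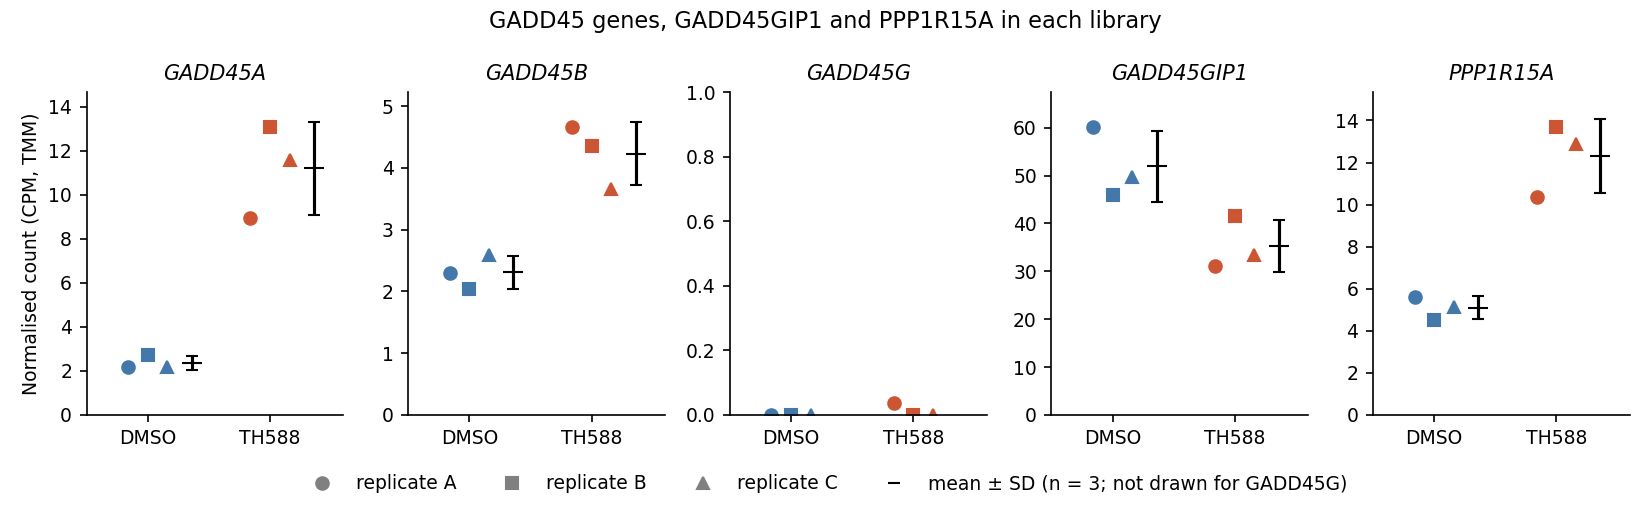
Normalised counts (CPM with TMM library sizes, vertical axes from 0) of the 5 genes in each of the 3 DMSO and 3 TH588 libraries, with mean ± SD except for *GADD45G*. *GADD45A*, *GADD45B* and *PPP1R15A* lie higher in every TH588 library, *GADD45GIP1* lies lower, and *GADD45G* lies at or near 0.

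In replicate order from A to C, *GADD45A* (ENSG00000116717, plus strand of chromosome 1 of GRCh38, 67685061 to 67688338) stood at 2.18, 2.73 and 2.17 CPM in the vehicle libraries and at 8.93, 13.1 and 11.6 CPM after TH588, and the same order is kept for the other members. Every TH588 library lay far above every DMSO library, and the shallow TH588 replicate A was the lowest of its group. The gene rose 4.79-fold, which is 2.26 on the log2 scale with a standard error of 0.16 (edgeR, adjusted p = 5.21e-07). In rank this was the 320th largest rise among the genes tested. It stayed between 2.13 and 2.40 with each library left out in turn.

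*PPP1R15A* (ENSG00000087074, plus strand of chromosome 19, 48872392 to 48876057) had 5.61, 4.53 and 5.14 CPM with DMSO and 10.3, 13.7 and 12.9 CPM with TH588. TH588 replicate A was again the lowest of the treated libraries, and still well above the highest DMSO library. The rise was 2.43-fold, or 1.28 on the log2 scale with a standard error of 0.14 (edgeR, adjusted p = 1.13e-05).

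*GADD45B* (ENSG00000099860, plus strand of chromosome 19, 2476122 to 2478259) had 2.30, 2.04 and 2.58 CPM with DMSO and 4.67, 4.35 and 3.67 CPM with TH588. Here TH588 replicate A was the highest library, not the lowest. The rise was the smallest of the 3, at 1.82-fold or 0.86 on the log2 scale with a standard error of 0.16 (edgeR, adjusted p = 0.00084).

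*GADD45G* (ENSG00000130222, plus strand of chromosome 9, 89605013 to 89606555) had 0 counts in all 3 DMSO libraries and in TH588 replicates B and C. A single read, 1 count or 0.0374 CPM, fell in TH588 replicate A. In the 5 libraries where nothing was counted, up to 3 counts are still possible, which is 0.0276 to 0.0365 CPM, for counting error only. This paralog had at most 1 read in any library, and no fold change can be given.

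*GADD45GIP1* (ENSG00000179271, minus strand of chromosome 19, 12953119 to 12957236) was much the most abundant member and moved the other way. It had 60.2, 45.9 and 49.7 CPM with DMSO and 31.0, 41.5 and 33.4 CPM with TH588. The groups did not overlap, but the lowest DMSO library, replicate B, and the highest TH588 library, also replicate B, lay close together. Its level with TH588 was 0.682 of that with DMSO, or -0.55 on the log2 scale with a standard error of 0.12 (edgeR, adjusted p = 0.00279). Exons annotated on the opposite strand overlap 29.4% of its exon bases, and the libraries do not mark strand, so reads of the 2 strands cannot be told apart.

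Levels of different genes can be compared roughly once counts are divided by exon length, taken here over all annotated exons of a gene. For *GADD45B* this length, 2138 bases, is the whole span of the gene, and for *GADD45A*, at 2069 bases, it is not. Levels per kilobase therefore depend on the annotation. Per kilobase of exon, *GADD45A* and *GADD45B* stood side by side with DMSO, at 1.14 ± 0.154 and 1.08 ± 0.128 CPM per kilobase (SD, n = 3 each), a difference within the spread of the libraries. *PPP1R15A* was above both in every DMSO library, at 1.65 ± 0.175, and *GADD45GIP1* far above them at 29.2 ± 4.17 CPM per kilobase. With TH588 the order changed. *GADD45A* stood at 5.42 ± 1.02, above *PPP1R15A* at 3.98 ± 0.566 in each of the 3 libraries although their ranges overlapped, and *GADD45B* followed at 1.98 ± 0.240 CPM per kilobase. *GADD45GIP1* remained the highest at 19.8 ± 3.08 CPM per kilobase, so its lead over *GADD45A* narrowed.

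The balance between paralogs was measured within each library, where it does not depend on how libraries are scaled. The ratio of *GADD45A* to *GADD45B* per exon length was 0.979, 1.38 and 0.867 with DMSO and 1.97, 3.11 and 3.26 with TH588, in replicate order. On the log2 scale it moved from 0.08 ± 0.35 to 1.44 ± 0.40 (SD, n = 3 each), a difference of 1.36 (two-sided exact permutation test, p = 0.1, the smallest that 3 against 3 libraries allow). Per annotated exon length the 2 genes were thus about equal without the inhibitor, and *GADD45A* was in excess in every treated library.

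*PPP1R15A* was compared in the same way with *PPP1R15B*, which encodes the constitutive partner of protein phosphatase 1 on eIF2. The log2 ratio of *PPP1R15A* to *PPP1R15B* was -3.19, -3.45 and -3.26 with DMSO and -1.96, -1.75 and -1.68 with TH588. The inducible gene remained the less abundant of the pair in every library, but the ratio was 2.83-fold higher with TH588 (two-sided exact permutation test, p = 0.1, again the smallest possible). *PPP1R15B* itself went from 84.4 ± 1.90 to 71.9 ± 5.41 CPM (SD, n = 3 each), or -0.23 on the log2 scale (edgeR, adjusted p = 0.0308). That call was lost, with an adjusted p of up to 0.14, when any library other than TH588 replicate B was left out and also with library size alone (0.4), no filter (0.0668) or the replicate block (0.0725).

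**Figure D2:**
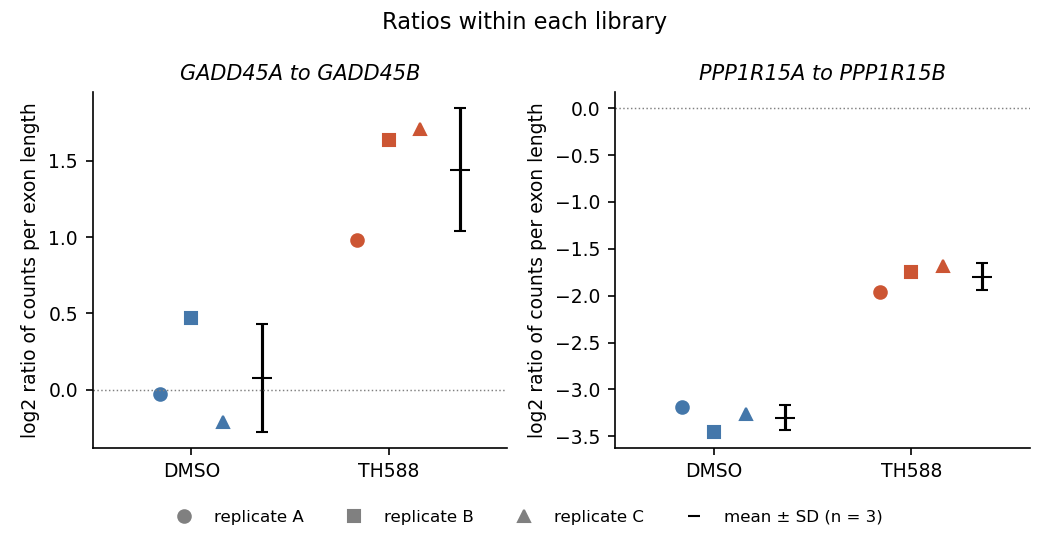
Log2 ratio of counts per exon length in each library, for *GADD45A* to *GADD45B* (left) and *PPP1R15A* to *PPP1R15B* (right), with mean ± SD of 3 libraries and a dotted line at equal levels. Both ratios lie higher in every TH588 library, and only the left one crosses from near equality to an excess of the numerator.

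Both rises and falls were found among the kinases below GADD45. Of 13 genes of the p38 and JNK cascade, 3 were higher and 3 were lower, 46.2% called against 49.6% of all genes, and their median change was 0.07 on the log2 scale. That median is not firm: it was 0.006 without DMSO replicate A, 0.112 without DMSO replicate B, 0.132 without DMSO replicate C, 0.121 without TH588 replicate B and 0.178 with library size alone, where 4 were higher and 2 lower. *MAP3K4*, the kinase that GADD45 proteins bind and activate, fell from 89.45 ± 1.121 to 54.8 ± 5.31 CPM (SD, n = 3 each), which is -0.70 on the log2 scale with a standard error of 0.09 (edgeR, adjusted p = 2.92e-05). *MAP2K6*, which phosphorylates p38, rose from 145 ± 3.45 to 239.6 ± 10.31 CPM, or by 0.72 on that scale. The other calls were rises of the JNK gene *MAPK10* (1.52) and the p38 gene *MAPK11* (0.72) and falls of the JNK gene *MAPK9* (-0.62) and of *MAPK14* (-0.28), which encodes p38 alpha. The call of *MAPK11* was lost without TH588 replicate B (adjusted p = 0.0535), and that of *MAPK14* without DMSO replicate B or C (up to 0.0927) and with library size alone (0.243).

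All 4 cell cycle partners were called, where 49.6% of all genes were. *CDK1*, the kinase of mitotic entry, fell from 58.75 ± 4.973 to 15.98 ± 2.712 CPM (SD, n = 3 each), or -1.86 on the log2 scale, and its partner *CCNB1* fell from 252 ± 12.9 to 164 ± 11.5 CPM, or -0.62. *PCNA*, the sliding clamp of replication, fell by 0.76 on the log2 scale. *CDKN1A*, which encodes p21, was the exception with a log2 fold change of 4.71. The adjusted p-values of the 4 were at most 6.01e-05 in edgeR's test.

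Of 10 genes linked to GADD45-dependent DNA demethylation, 2 were higher and 2 were lower, 40.0% called against 49.6% of all genes. Their changes lay between -0.39 and 0.62 on the log2 scale, the upper end being *ERCC5*, which was not called, stood at 0.590 ± 0.109 CPM with DMSO and has 63.2% of its exon bases overlapped by other genes' exons. *TDG*, the glycosylase that removes oxidized methylcytosine, was not called, at 42.65 ± 2.911 and 38.05 ± 2.859 CPM (SD, n = 3 each; edgeR, log2 fold change -0.16, adjusted p = 0.146). *TET2* (0.26) and *ING1* (0.34) were called higher and *MBD4* (-0.39) and *APEX1* (-0.21) lower, but of these 4 only *MBD4* kept its call when DMSO replicate A, B or C was left out and with the replicate block, and with library size alone *MBD4* lost it (adjusted p = 0.0692).

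Among 19 transcription factors known to act on these genes, 6 were higher and 5 were lower, 57.9% called against 49.6% of all genes, and the median change was 0.12 on the log2 scale. With library size alone 7 were higher and 1 was lower, and the median was 0.225, so the split depends on the scaling. The median was 0.185 without TH588 replicate C. The 3 largest rises were those of *EGR1*, an immediate early factor, from 17.5 ± 3.86 to 204 ± 23.9 CPM (3.54 on the log2 scale, adjusted p = 1.62e-08), of *FOXO4* from 0.266 ± 0.0732 to 2.36 ± 0.631 CPM (3.17, adjusted p = 3.51e-06) and of *STAT3* from 62.5 ± 3.44 to 147 ± 9.75 CPM (1.23, adjusted p = 3.34e-07), all from edgeR's test. *BRCA1*, which acts on the *GADD45A* promoter, had the largest fall, from 180 ± 4.83 to 59.6 ± 2.13 CPM (log2 fold change -1.59). *TP73* (-0.53) and *ATF4* (-0.36) were lower too, with calls lost for *TP73* without DMSO replicate A or TH588 replicate C (adjusted p up to 0.0519) and for *ATF4* without DMSO replicate A or C (up to 0.0868). With library size alone both calls were lost as well (0.0572 and 0.246). Without DMSO replicate A, 7 genes of the list were called in place of 11.

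**Figure D3:**
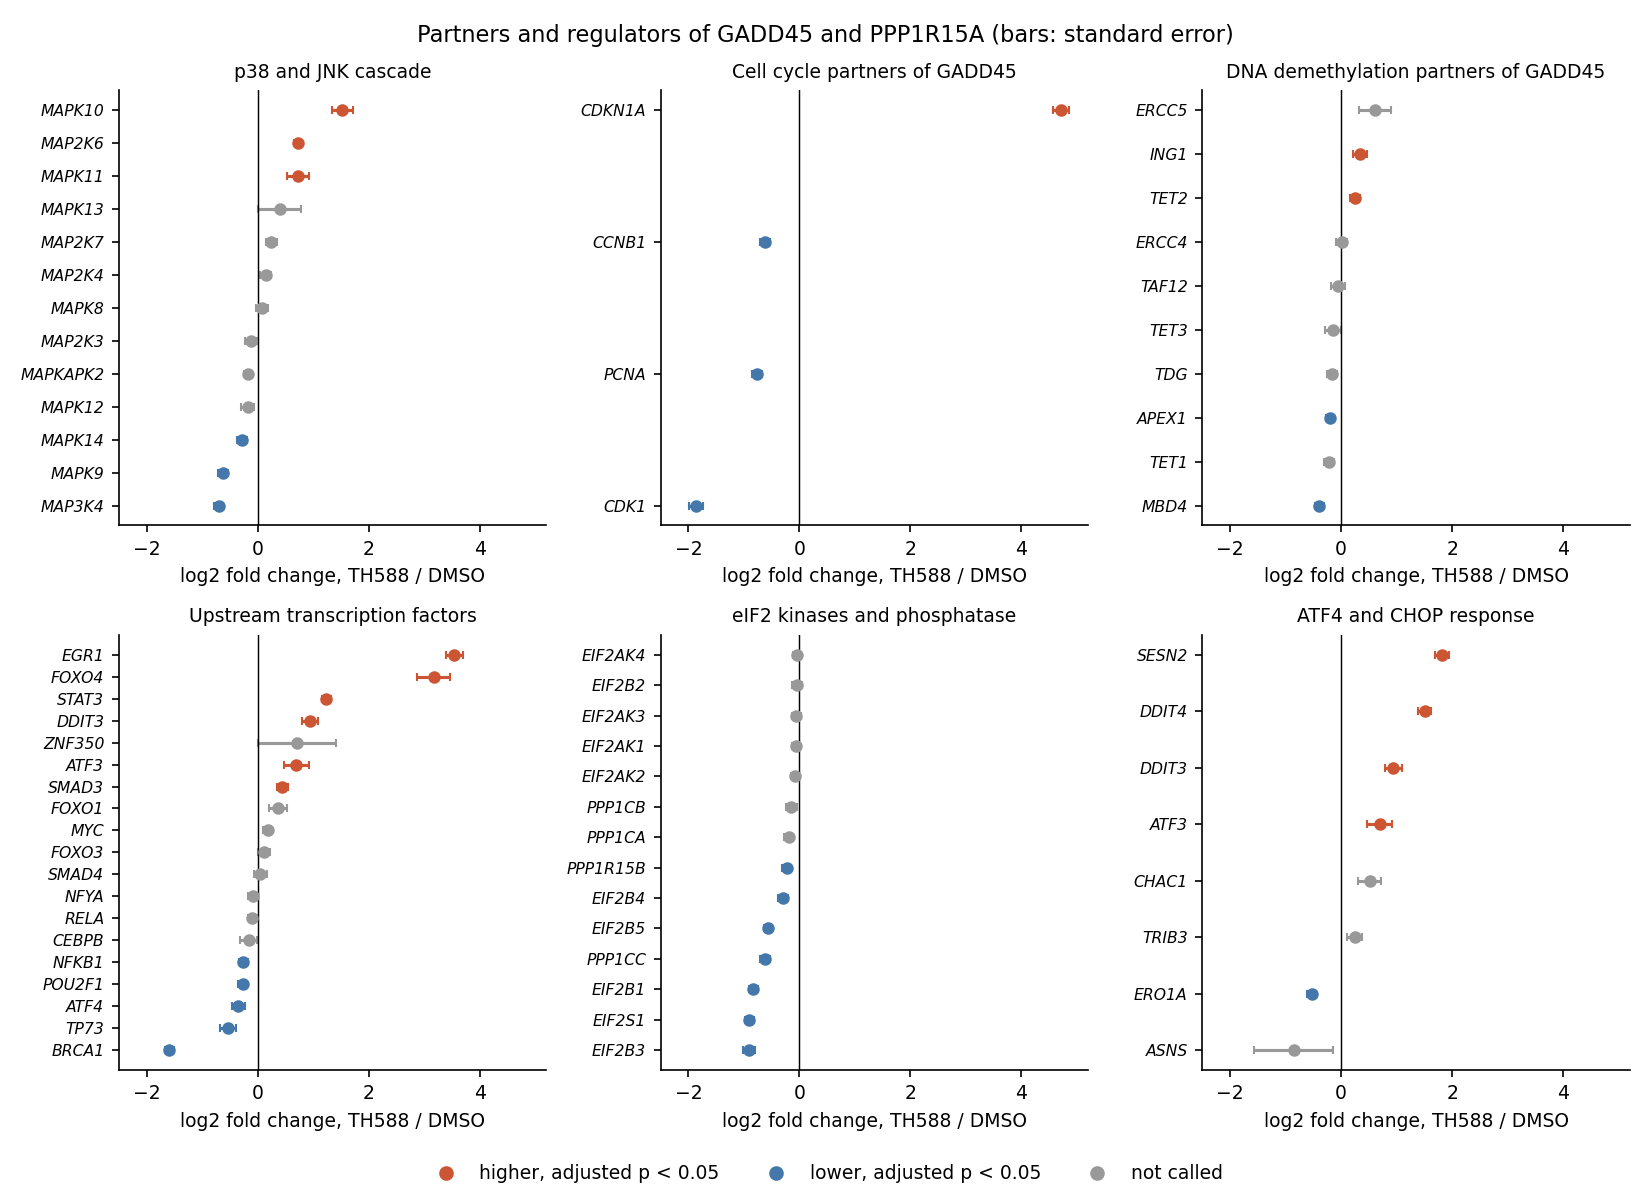
Log2 fold change (TH588 over DMSO) with its standard error for each tested gene of 6 lists, in red where higher and in blue where lower at an adjusted p under 0.05, and in grey where not called. *CDKN1A*, *EGR1* and *FOXO4* stand far to the right, *CDK1* and *BRCA1* far to the left, and all 14 genes of the eIF2 list lie below 0 on the TMM scale, against 9 of 14 with library size alone.

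No listed gene of the eIF2 machinery rose with *PPP1R15A*. Of 14 genes for the eIF2 kinases, eIF2 alpha, eIF2B and protein phosphatase 1, 0 were higher and 7 were lower in edgeR's test, 50.0% called against 49.6% of all genes, and 14 had a log2 fold change below 0, but with library size alone as the scale 9 did and 5 were called lower. The median was -0.21 with TMM and -0.11 with library size alone, and 13 lay below 0 without DMSO replicate C or TH588 replicate A or C. Since no value lay above 0, the number higher is also 0 at an unadjusted p under 0.05, and DESeq2 and limma likewise called 0 higher. *EIF2S1*, which encodes the subunit that the kinases phosphorylate and GADD34 restores, fell from 170 ± 11.2 to 90.7 ± 3.35 CPM (SD, n = 3 each), or -0.91 on the log2 scale with a standard error of 0.08 (edgeR, adjusted p = 2.3e-06). The eIF2B subunit genes *EIF2B3* (-0.92) and *EIF2B1* (-0.83), of the exchange factor that recharges eIF2, fell by like amounts. The catalytic subunit gene *PPP1CA* was not called, at 143 ± 5.72 and 125 ± 6.84 CPM (edgeR, adjusted p = 0.0554), but passed with limma (0.0471) and without TH588 replicate B (0.0362), and other genes' exons overlap 26.9% of its exon bases.

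In the ATF4 and CHOP response, 4 of 8 genes were higher and 1 was lower, 62.5% called against 49.6% of all genes, and the median change was 0.61 on the log2 scale. *DDIT3* and *ATF3* were counted among the transcription factors too. *DDIT3*, which encodes CHOP, an activator of *PPP1R15A*, rose from 3.396 ± 0.5283 to 6.507 ± 0.4339 CPM (SD, n = 3 each), or by 0.94 on the log2 scale (edgeR, adjusted p = 0.000206). *SESN2* (1.82) and *DDIT4* (1.502), which restrain mTORC1, rose more. *ATF3* went from 1.32 ± 0.0953 to 2.095 ± 0.5998 CPM, or by 0.70 (edgeR, adjusted p = 0.0222), a call lost without DMSO replicate A or TH588 replicate B or C (up to 0.141). *ERO1A*, an oxidase of the endoplasmic reticulum, fell (-0.53), and *TRIB3*, *CHAC1* and *ASNS* were not called (log2 fold changes 0.24, 0.52 and -0.85). *ASNS* was hardly counted, with 0 to 27 counts per library, and its change had a standard error of 0.71. Other genes' exons overlap 39.6% of the exon bases of *DDIT3*, 41.2% of *DDIT4* and 44.6% of *ASNS*, so these values are uncertain.

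*GADD45GIP1* was lower, as were most of the called genes of the ribosomal subunit its product belongs to. Of 49 other genes of the large mitochondrial subunit, 48 were tested, 27 were lower and 4 were higher, 64.6% called against 49.6% of all genes, and their median change was -0.44 on the log2 scale. The value of *GADD45GIP1*, -0.55, lay between the lower quartile of these genes (-0.62) and their median, and 17 of the 48 had a lower value. *MRPL1* fell from 49.6 ± 1.02 to 19.96 ± 2.92 CPM (SD, n = 3 each), or -1.30 on the log2 scale, and *MRPL40* (-1.28) and *MRPL48* (-1.26) fell as much. The largest rises were those of *MRPL30* (1.28), *MRPL10* (0.41) and *MRPL43* (0.35), of which *MRPL30* was at 0.347 ± 0.114 and 0.837 ± 0.262 CPM. Other genes' exons overlap 19.5% of the exon bases of *MRPL30* and 36.9% of *MRPL43*, so these values are uncertain. The calls of *MRPL30* without TH588 replicate C and of *MRPL43* without DMSO replicate C or TH588 replicate A or B were lost (adjusted p up to 0.0891 and 0.0621). With library size alone, 22 genes of the list were lower and the median was -0.33.

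**Figure D4:**
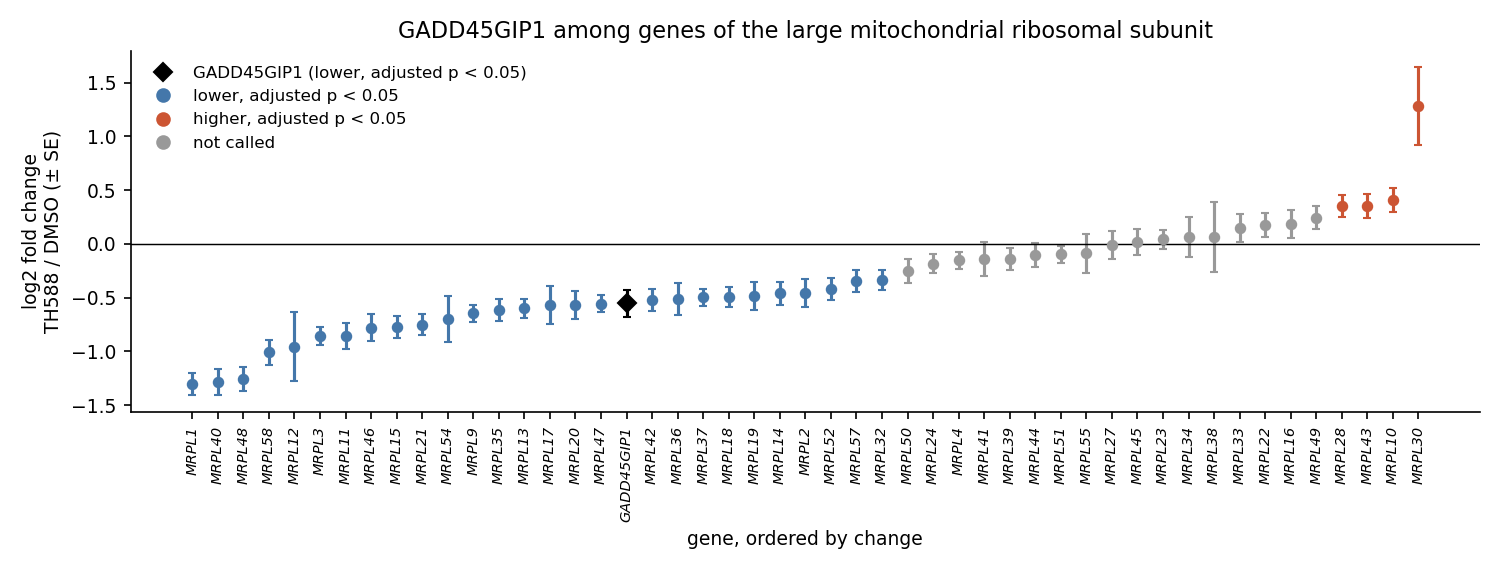
Log2 fold change (TH588 over DMSO) with its standard error for *GADD45GIP1* (black diamond) and 48 genes of the large mitochondrial ribosomal subunit, ordered by change. *GADD45GIP1* lies inside the range of the 27 genes called lower, which runs down to -1.30.

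The genes with the pattern most like each member were found by Pearson's r of log2 CPM over the 6 libraries, the genes compared having a mean log2 CPM of 2 or more. With 2 groups of 3 libraries such values mostly restate the group difference: 1601 of 9761 genes had an r above 0.9 with *GADD45A*, and 1506 with *PPP1R15A*. For *GADD45A* the 3 highest were *TMEM219* (0.999), *JUNB* (0.9988) and *CTTNBP2NL* (0.9988), whose log2 fold changes were 1.51, 1.85 and 0.96. For *PPP1R15A* they were *TBX10* (0.9993), *FKBP10* (0.9992) and *ULK1* (0.9987). For *GADD45B* they were *DUSP14* (0.9992), *RAP2A* (0.9953) and *NELL2* (0.9945), and for *GADD45GIP1* *CCSAP* (0.999), *ZMIZ1* (0.9987) and *DDX54* (0.9985).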

How the data were processed

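RNA was harvested from A2780 cells in 3 independent experiments and libraries were prepared with the unstranded TruSeq RNA kit v2 from Illumina. The authors aligned reads to GRCh38 with TopHat, counted them per gene with featureCounts 1.4.6 and deposited the raw counts of 6 libraries without normalization. Per the methods the gene models came from UCSC, while the table carries Ensembl identifiers, and how reads shared by several genes were counted is not given in the sources used here. The authors' own comparison used DESeq2.

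Counts were analysed with edgeR 4.0.16 in R 4.3.3 (TMM normalization, default low count filter, quasi-likelihood test, Benjamini-Hochberg adjustment over all 15844 genes tested, threshold 0.05). CPM values use TMM library sizes, and standard errors were derived from each gene's F statistic. The procedure was run on simulated counts in which a small part of the genes changed, as many up as down. That does not test the scaling under a response as broad as the one here. Ratios within a library had 0.5 counts added. The replicate letters were not used as a block. Alternatives used DESeq2 1.42.0, limma 3.58.1, other scalings and filters, and each library left out.

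The members, gene lists and rule for named genes were chosen with earlier results of these data known. The rule took every member, 12 fixed partners, and the 3 largest rises and falls called in each list. With 3 libraries per group a permutation test cannot go below p = 0.1. Of 58336 genes, 57754 were matched to a symbol. Protein sequences were not used here, and some items are not reported here.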

Additional observations from a re-analysis of the deposited data

How the results depend on the processing

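The calls of *GADD45A*, *PPP1R15A*, *GADD45B* and *GADD45GIP1* kept their direction and significance under all 13 alternatives run, with log2 fold changes of 2.13 to 2.40, 1.196 to 1.395, 0.78 to 0.98 and -0.69 to -0.41. The largest adjusted p was that of *GADD45GIP1* with library size only (0.0447). *GADD45G*, with 1 read in all, has no tested value to compare. The replicate block gave 7195 called genes against 7852 without it, 7129 being shared, and deviations of same-letter libraries correlated at only -0.071, -0.083 and 0.001, so the letters were taken as a shared name and not as a pairing. Both ratios kept their direction under every alternative run, with p = 0.2 to 0.25 as the smallest that fewer libraries or the block allow in an exact permutation test.

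The number of genes called in the DNA demethylation list fell from 4 to 2 with library size only and with no filter, and to 1 with the replicate block and at an adjusted p under 0.01. Leaving out single libraries gave 1 to 5. The number of called transcription factors fell from 11 to 7 at an adjusted p under 0.01, and leaving out single libraries gave 7 to 12. The cause was not tested. Depth limits *GADD45G*, for which a count of 0 allows up to 0.0365 CPM in the 5 libraries without a read.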

Other observations

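The nearest tested gene on each side of the members was compared as a description, chosen after the results were seen. Genes that failed the low count filter were passed over, so an untested gene may lie closer. A side where the nearest tested gene overlapped the member was left out. *PPP1R15A* lies 3760 bases from *PLEKHA4* and 4908 bases from *TULP2*, and both were higher after TH588, by 0.78 (standard error 0.12; edgeR, adjusted p = 0.000185) and 1.6 (standard error 0.51; edgeR, adjusted p = 0.0204) on the log2 scale, against 1.28 for *PPP1R15A*. *TULP2* was near the low count filter, at a mean log2 CPM of -1.96. Of all genes tested, 24.2% were called higher. Neither neighbour of *GADD45A* was. *GNG12*, 13128 bases away, was not called (log2 fold change -0.33, adjusted p = 0.116 from edgeR's test). *SERBP1*, 254646 bases away on the other side, was lower (-0.68). *LMNB2*, which encodes lamin B2 and lies 19126 bases from *GADD45B*, was lower as well (-1.02, adjusted p = 9.43e-05 from edgeR's test). On the other side of *GADD45B*, 32960 bases away, *GNG7* was not called (0.71, adjusted p = 0.265 from edgeR's test). Its mean log2 CPM was only -1.71. *GADD45G*, with 1 read in all, lies 106883 bases from *SEMA4D*, which was expressed and not called (0.03, adjusted p = 0.876 from edgeR's test). *AUH*, 1607260 bases away on the other side, was not called either (0.18, adjusted p = 0.187 from edgeR's test). Nor was *DAND5*, 7923 bases from *GADD45GIP1* (0.54, adjusted p = 0.566 from edgeR's test), at a mean log2 CPM of -2.91.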
